A study of Homo sapiens with 4 samples.

Results

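The interferon regulatory factors are a family of DNA-binding proteins, and 8 of their genes (IRF1, IRF2, IRF3, IRF4, IRF5, IRF7, IRF8 and IRF9) were followed here through lists of enhancer regions that carry H3K27ac, the acetyl mark on lysine 27 of histone H3. A region counted for a member when the gene name that the authors' annotation gave it was the member's symbol. By this rule 29 of the 45672 regions in 4 tables belonged to the family. IRF1, IRF2, IRF4 and IRF5 had at least 1 region, and IRF3, IRF7, IRF8 and IRF9 had none in any table.

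The regions come from Kasumi-1, an established human acute myeloid leukaemia line with the t(8;21) translocation. CRISPR/Cas9 was the treatment in all samples, with a non-targeting guide in 2 (sgNT, genotype labelled WT) and a guide against SETD8 in the other 2 (sgSETD8, genotype labelled SETD8 knockout). SETD8, encoded by KMT5A, adds the first methyl group to lysine 20 of histone H4. In CUT&Tag an antibody, here against H3K27ac, brings a transposase to the marked chromatin. Each library was made from 100000 cells. The labels do not state the time after editing, whether the edited cells were a pool or a clone, or whether the samples came from separate cultures. In such bulk samples, fewer cells carrying the mark and less mark per cell cannot be told apart.

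Interferon regulatory factors share an amino-terminal domain that binds GAAA-containing sites, among them the interferon-stimulated response element. IRF3 and IRF7 turn on type I interferon genes once they are phosphorylated, and IRF9 is the DNA-binding part of the complex that carries the type I interferon signal to the nucleus. IRF1 activates and IRF2 largely represses overlapping targets, whereas IRF4, IRF5 and IRF8 act mainly in blood and immune cells.

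The promoters of these genes show what the enhancer regions did or did not reach. RefSeq promoter windows (GRCh38.p14, 300 bases, 250 before and 50 after the annotated start) were at hand for 5 of the 8 members, as 9 windows. None was at hand for IRF2, IRF3 or IRF7. Capitals mark a GC box (GGGCGG) in IRF5 and IRF4, a STAT-type site (TTCNNNGAA) in IRF1 and IRF9, and a RUNX motif (TGTGGT) in IRF8, each searched on both strands. Only 1 kind of motif is marked per window: the IRF1 and IRF9 windows also held 5 and 2 GC boxes, left in lower case, and an IRF5 window not printed held a RUNX motif. Dense regions of both groups covered all 4 windows of IRF5, of which the 2 nearest the gene's 5′ end are printed. These regions joined 6 peaks with sgNT and 5 with sgSETD8 and include the bases between them. Whether a peak lay at an IRF5 window is therefore not shown. The windows of IRF1, IRF9, IRF8 and IRF4 are printed because no region of any table reached them. The starts of the IRF1, IRF9 and IRF4 windows are the outer ends of the gene spans given below, whereas those of the IRF5 windows lie 895 and 1185 bp inside the span and that of the IRF8 window 3668 bp inside it, at alternative starts.

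IRF5 promoter at an alternative start, chr7:128937677-128937976, plus strand: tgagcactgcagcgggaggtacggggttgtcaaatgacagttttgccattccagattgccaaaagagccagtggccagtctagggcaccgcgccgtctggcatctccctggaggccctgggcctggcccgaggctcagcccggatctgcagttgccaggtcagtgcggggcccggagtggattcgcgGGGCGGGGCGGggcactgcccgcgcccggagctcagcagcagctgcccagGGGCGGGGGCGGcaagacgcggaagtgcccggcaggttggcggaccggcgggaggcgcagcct
IRF5 promoter at an alternative start, chr7:128937967-128938266, plus strand: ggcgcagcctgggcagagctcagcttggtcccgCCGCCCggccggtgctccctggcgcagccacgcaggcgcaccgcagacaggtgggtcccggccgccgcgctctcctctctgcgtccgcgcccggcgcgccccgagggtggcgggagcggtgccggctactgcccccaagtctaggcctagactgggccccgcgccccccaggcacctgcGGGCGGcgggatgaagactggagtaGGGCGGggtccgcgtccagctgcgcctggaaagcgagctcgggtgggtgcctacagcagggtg
IRF1 promoter, chr5:132490724-132491023, minus strand: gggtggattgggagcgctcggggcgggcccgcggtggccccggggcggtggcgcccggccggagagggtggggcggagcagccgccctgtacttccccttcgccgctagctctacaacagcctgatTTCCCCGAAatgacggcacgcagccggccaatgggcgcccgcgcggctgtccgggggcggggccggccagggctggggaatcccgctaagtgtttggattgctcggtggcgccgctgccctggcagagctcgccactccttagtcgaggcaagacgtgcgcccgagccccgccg
IRF9 promoter, chr14:24161015-24161314, plus strand: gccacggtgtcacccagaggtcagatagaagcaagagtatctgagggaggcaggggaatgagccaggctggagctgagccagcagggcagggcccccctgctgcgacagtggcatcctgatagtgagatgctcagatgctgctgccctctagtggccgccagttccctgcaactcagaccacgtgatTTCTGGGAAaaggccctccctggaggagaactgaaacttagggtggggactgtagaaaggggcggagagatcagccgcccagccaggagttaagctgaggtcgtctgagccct
IRF8 promoter at an alternative start, chr16:85902580-85902879, plus strand: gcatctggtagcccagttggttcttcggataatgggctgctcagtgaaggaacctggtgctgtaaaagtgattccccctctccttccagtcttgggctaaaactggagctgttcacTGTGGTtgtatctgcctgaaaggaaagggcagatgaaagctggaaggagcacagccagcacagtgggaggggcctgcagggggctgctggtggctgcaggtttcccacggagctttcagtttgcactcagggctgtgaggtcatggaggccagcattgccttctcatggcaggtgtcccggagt
IRF4 promoter, chr6:391502-391801, plus strand: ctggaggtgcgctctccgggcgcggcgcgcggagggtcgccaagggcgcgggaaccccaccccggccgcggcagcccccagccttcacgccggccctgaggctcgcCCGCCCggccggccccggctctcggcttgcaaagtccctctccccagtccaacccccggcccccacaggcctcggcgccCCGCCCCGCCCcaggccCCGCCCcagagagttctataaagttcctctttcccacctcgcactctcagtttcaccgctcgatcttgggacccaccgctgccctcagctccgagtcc

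The IRF1 window held TTCCCCGAA 124 bases before the start, and the IRF9 window held TTCTGGGAA 63 bases before it. Of all 35116 RefSeq promoter windows of this length, 7.66% held a match to TTCNNNGAA, 13.1% one to TGTGGT and 45.0% one to GGGCGG. The core of an interferon-stimulated response element (GAAA blocks spaced by 2 bases) was in 3.57% of them and in 0 of the 9 member windows. The RUNX motif of the IRF8 window lay 134 bases before that window's alternative start. These matches are letters in a window and were not tested as binding sites. G and C made up 73.7% of the IRF1 window, 74.0% of that of IRF4 and 60.0% of that of IRF9. Of the 9 windows, only the 4 of IRF5 overlapped a region, a joined one in both dense tables. IRF2 had no window here, but the 5′ end of its span, at position 184474550, lay inside joined dense regions of both groups. The nearest dense region to the IRF1 window was 2222 bp away with sgNT and 3023 bp away with sgSETD8.

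Each group had 2 tables, and tables deposited in the same file type were read as a pair, 1 of each group. The pairs are called sparse and dense after their numbers of regions. The sparse tables held 5186 regions with sgNT and 7276 with sgSETD8, of median width 512 and 341 bp. The dense tables held 15149 and 18061 regions, of median width 1515 and 1499 bp. The tables give no read counts, so the depth is unknown. Region identifiers carry peak numbers, and not every numbered peak is in a table. The sparse tables held 6026 peaks with sgNT and 8029 with sgSETD8, against highest peak numbers of 15260 and 11223. The dense tables held 41194 and 46085 peaks, against 53417 and 58038. The sparse sgNT table thus had the higher numbering but fewer regions, and its bearing on the sparse counts was not tested. Within a table, regions were ranked by the authors' signal, rank 1 being the strongest. Signal density is that signal per bp, on a scale that is not stated. With 2 tables a group, an exact two-sided permutation test cannot give a p below 0.33, so counts are given with no test. As a check of the line, 7 of 8 Kasumi-1 markers (among them CD34, KIT and RUNX1) had a dense region with sgNT and 8 of 8 with sgSETD8. Of the 4 B cell, 4 T cell, 4 erythroid, 4 epithelial and 4 fibroblast markers, 1, 2, 1, 0 and 0 had one with sgNT and 1, 2, 1, 1 and 0 with sgSETD8. Their part in any value below was not tested.

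By gene name, the family had 2 regions in the sparse sgNT table, 6 in the sparse sgSETD8 table, 15 in the dense sgNT and 6 in the dense sgSETD8 table. The pairs thus differed in opposite directions, with sgSETD8 higher by 4 among sparse regions and lower by 9 among dense ones. IRF1 alone gave the dense difference, with 10 regions against 1, and the other members with a dense region had equal numbers in both groups (IRF2 1, IRF4 3, IRF5 1). Among the 10826 genes with a dense region in either group, 21.2% had fewer regions with sgSETD8 and 37.3% had more; the members counted 1 and 0 of 4. Among sparse regions, IRF4 (0 and 3) and IRF5 (0 and 2) had regions with sgSETD8 only, IRF1 (1 and 0) with sgNT only, and IRF2 had 1 in each. Of the 7397 genes with a sparse region, 51.3% had more with sgSETD8, 33.4% fewer, 45.9% a region with sgSETD8 only and 28.8% with sgNT only. The median difference per gene was 1 region for the members and 1 for all genes with sparse regions, and 0 and 0 with dense ones.

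**Figure D1:**
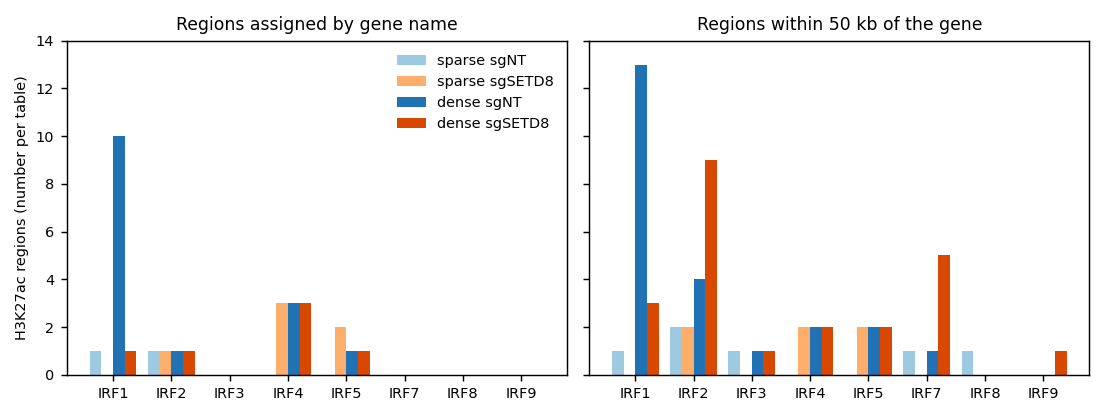
Number of H3K27ac regions (vertical axis) for each of the 8 IRF genes (horizontal axis) in each table, 1 bar per table, by gene name (left) and within 50 kb of the gene whatever the name (right). By name IRF1 stands at 10 against 1 in the dense pair; by position the dense sgNT table is higher at IRF1 (13 against 3) and the dense sgSETD8 table at IRF2 (4 against 9) and IRF7 (1 against 5).

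Dense regions named for the family covered 129.6 kb with sgNT and 132.2 kb with sgSETD8, made of 40 and 34 peaks. Members differed in opposite directions within these sums, with 9.14 and 1.78 kb for IRF1, 70.7 and 107 kb for IRF2, 17.3 and 3.28 kb for IRF4 and 32.4 and 20.2 kb for IRF5. Within 50 kb of the 8 genes, whatever name a region had, there were 23 dense regions in each group, with 71 peaks and 186 kb against 82 peaks and 219 kb. Of these 23, 13 were named for the member with sgNT and 4 with sgSETD8. The sparse windows held 6 regions in each group, covering 21.9 and 1.79 kb. Of the sgNT cover, 10.8 kb was a region named LINC02427 near IRF2 and 9.59 kb one named PHRF1 near IRF7. When dense regions within 12.5 kb of each other were merged, the family had 6 in each group.

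IRF1, an activator of interferon and antigen-presentation genes, spans 9.17 kb at chr5:132481609-132490773 on the minus strand. Its 10 dense sgNT regions ran from position 132456217 to 132501166, were 407 to 1627 bp wide, and each was a single peak with an identifier not marked as stitched. Their signal densities were 0.523 to 1.44 and their ranks 6206 to 11923. The widest and best ranked, chr5:132456217-132457843, and 5 more lay in intron 3 of a transcript of CARINH (older symbol C5orf56, synonym IRF1-AS1), a non-coding gene beside IRF1. Another 8 single peaks at lower coordinates carried the name C5orf56, so that 18 unjoined peaks stretched over 85.9 kb and covered 21.5 kb of it.

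With sgSETD8 the same stretch held 2 dense regions. One, named C5orf56, joined 18 peaks over 65.3 kb (chr5:132414848-132480107, density 0.498, rank 456). The other, the IRF1 region, joined 2 peaks in 1.78 kb at chr5:132494046-132495820 (density 0.776, rank 8326). Of the 18 sgNT peaks, 16 were covered by these regions, all 8 named C5orf56 and 8 of the 10 named IRF1. The exceptions were chr5:132488096-132488502, at a transcript end inside IRF1, which lay 5544 bp from the nearest sgSETD8 region, and chr5:132500605-132501166, upstream of the gene and 4785 bp from one. They had densities of 1.02 and 0.940 and ranks of 11923 and 10894. The count of 10 against 1 thus went with a stretch of 18 against 20 peaks. Ranks and densities of joined regions and of single peaks are not alike, since a joined region includes the bases between its peaks. Summed over the regions of the stretch, the signal was 25325 over 21.5 kb with sgNT and 33897 over 67.0 kb with sgSETD8. The sgSETD8 sum includes bases between joined peaks and the sgNT sum does not, so the sums are not alike either. As single regions these sums would stand at ranks 838 and 428. By position, sgSETD8 regions covered 91.9% of the bases of sgNT regions within 50 kb of IRF1, whereas sgNT regions covered 21.4% of those of sgSETD8. Over the whole genome these shares were 77.0% and 66.9%. Near IRF1 the sgSETD8 bases again include those between joined peaks, and the sgNT bases do not.

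The IRF1 start site, at position 132490773, lay in no region of any table. In the dense sgNT table the nearest regions ended 2271 bp on one side and began 3500 bp on the other. Peak numbers in the identifiers rose along the chromosome in every table, and here they went from 41041 to 41043, so 1 numbered peak between them is not in the table used here. The IRF1 promoter printed above fell in this gap. In the sparse pair, sgNT had 1 region of 398 bp at chr5:132457351-132457748 (density 1.13, rank 3810), inside dense regions of both groups. The nearest sparse sgSETD8 region was 378 kb from the gene. Upstream of IRF1, the dense sgSETD8 table also had a region named IL5, an interleukin gene, at chr5:132529006-132529707 (rank 12248).

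**Figure D2:**
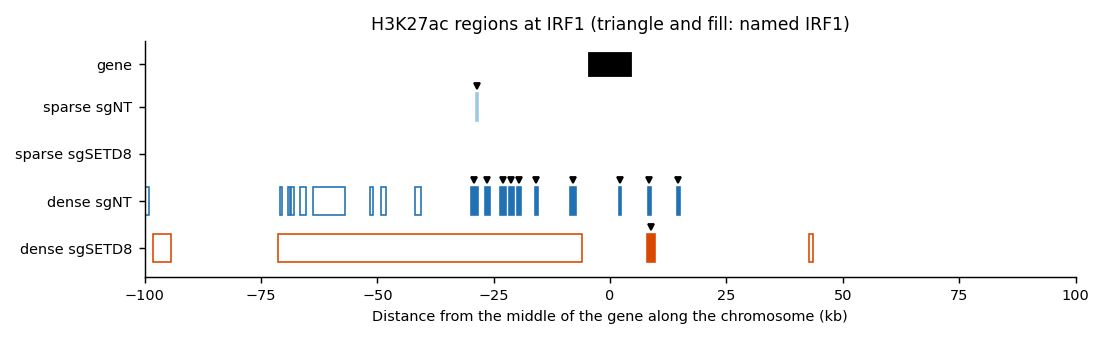
Regions around IRF1 in all 4 tables, by distance from the middle of the gene in kb (horizontal axis), 1 row per table, with regions named IRF1 filled and marked by a triangle and regions of other names open. The dense sgNT row shows separate single peaks where the dense sgSETD8 row has 1 long region named C5orf56 and a short IRF1 region; the narrowest regions are drawn slightly wider than scale.

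IRF2, mainly a repressor that competes with IRF1 for sites, spans 86.8 kb at chr4:184387729-184474550 on the minus strand and had the best-ranked dense regions of the family by signal, though not by density. The dense sgNT region, chr4:184409056-184479790, was 70.7 kb wide with 19 peaks, a density of 1.24 and rank 112 (the top 0.739% of its table). The dense sgSETD8 region, chr4:184408208-184515160, was 107 kb wide with 24 peaks, a density of 0.739 and rank 97 (the top 0.537%). It was 1.51 times as wide and contained the whole sgNT region. In the sgNT table the next region, named LINC02427, held 5 peaks and began 20.0 kb further on, so both groups had 24 peaks over this stretch. Both IRF2 regions ranked above the bend of the signal curve (the point of slope 1 once both axes are scaled alike), which fell at 710 regions with sgNT and 770 with sgSETD8. The gene itself was covered by 71.1 kb of dense regions with sgNT and 67.2 kb with sgSETD8.

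At the downstream end of IRF2 the splitting ran the other way. There the sgNT table had 1 region named LINC02362, 22.8 kb wide with 4 peaks, and the sgSETD8 table had single unjoined peaks of LINC02362 and LINC02363. Within 50 kb of IRF2 the dense tables had 4 and 9 regions but 31 and 32 peaks, covering 114.5 and 122.9 kb, and 68.2% of the bases covered in either group were covered in both (55.8% over the whole genome). Sparse regions named IRF2 were 1 in each group, both in intron 1. With sgNT it was chr4:184438556-184438848 (293 bp, the shortest width in that table, shared by 10.9% of its regions, rank 4736). With sgSETD8 it was chr4:184456719-184457076 (358 bp, rank 2552). They lay 17871 bp apart, and both were inside the dense regions of both groups. Each sparse table also had a region named LINC02427 within 50 kb of IRF2. It was chr4:184503861-184514698 with sgNT (10.8 kb, 2 peaks, rank 910) and chr4:184514358-184514631 with sgSETD8 (274 bp, rank 4121).

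**Figure D3:**
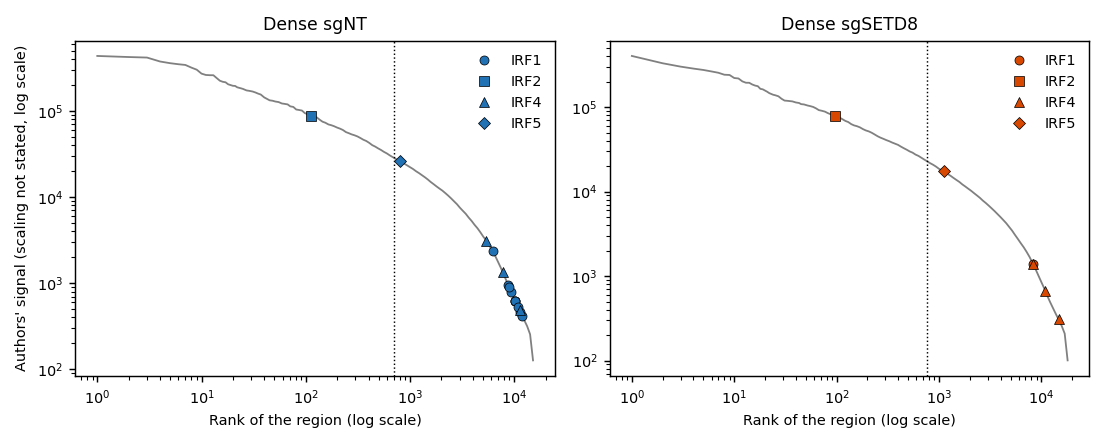
Signal of every dense region (vertical axis, log scale, the authors' unit) by its rank in its table (horizontal axis, log scale) for sgNT (left) and sgSETD8 (right), with the IRF regions marked by symbols and a dotted line at the slope-1 point of each curve. The IRF2 regions, at ranks 112 and 97, are the only IRF regions to the left of the line, and those of IRF5, at 810 and 1112, lie to its right.

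IRF5, which drives inflammatory cytokine genes below Toll-like receptors, spans 13.0 kb at chr7:128937032-128950038 on the plus strand. It was the only member whose whole span, start sites included, lay in a dense region in both groups, each joined from several peaks. The sgNT region, chr7:128931511-128963936, was 32.4 kb wide with 6 peaks (density 0.799, rank 810, the top 5.35%). The sgSETD8 region, chr7:128931562-128951788, was 20.2 kb wide with 5 peaks (density 0.859, rank 1112, the top 6.16%). Their right ends differed by 12148 bp, the sgNT region reaching into TNPO3, a nuclear import gene next to IRF5. The sgNT region was 1.60 times as wide, the opposite order to IRF2. On the other side of IRF5 both dense tables had a short region named KCP, 675 bp wide with sgNT (rank 10965) and 630 bp with sgSETD8 (rank 13019).

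The sparse tables showed IRF5 only with sgSETD8, and at its edges. One region, chr7:128928938-128929218 (281 bp, rank 3712), lay 2293 and 2344 bp outside the dense regions. The other was chr7:128963237-128963510 (274 bp, the shortest width in its table, shared by 29.7% of that table's regions, rank 4517). It lay in an intron of TNPO3, inside the dense sgNT region and 11449 bp from the dense sgSETD8 region. Their identifiers carry consecutive peak numbers, which leaves no numbered sparse sgSETD8 peak in the 34.0 kb between them, where the dense region of the same group covered the whole gene. With sgNT the nearest sparse region was 173 kb from the gene.

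IRF4, a factor of lymphocyte and myeloid differentiation, spans 19.7 kb at chr6:391752-411443 on the plus strand and had 3 dense regions in each group, none of them over the gene. The first lay upstream, at chr6:384373-384743 with sgNT (371 bp, density 1.31, rank 11250) and chr6:384474-385095 with sgSETD8 (622 bp, density 1.08, rank 10898). The next lay downstream, at chr6:473411-475039 with sgNT (1629 bp, density 0.832, rank 7722) and chr6:473410-475414 with sgSETD8 (2005 bp, density 0.701, rank 8260). The last was inside EXOC2, an exocyst gene, and differed most in width, with 15.3 kb and 3 peaks at chr6:490829-506151 with sgNT (density 0.204, rank 5396) and 1 peak of 652 bp at chr6:499013-499664 with sgSETD8 (density 0.474, rank 14718). Ranked by density, the 15.3 kb region stood at 15112 of the 15149 dense sgNT regions, near the bottom. All 6 overlapped a region of the other group, and together they covered 17.3 kb with sgNT and 3.28 kb with sgSETD8.

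The upstream and downstream IRF4 regions had consecutive peak numbers in both dense tables. No numbered peak was therefore skipped over the 88.7 kb (sgNT) and 88.3 kb (sgSETD8) that hold the entire gene and the IRF4 promoter printed above. The best-ranked region close by carried another name, DUSP22, a phosphatase gene, with 15 peaks in each group at ranks 135 and 108. In the sparse pair, sgSETD8 had 3 regions named IRF4, all centred on an annotated repeat. They were chr6:367307-367632 (326 bp, rank 3289), chr6:455709-455982 (274 bp, the shortest width in that table, rank 6321) and chr6:505437-505880 (444 bp, rank 2567). The first and second overlapped no dense region, and the last overlapped the wide dense sgNT region but not the dense sgSETD8 one. The sparse sgNT table had no region within 50 kb of IRF4.

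**Figure D4:**
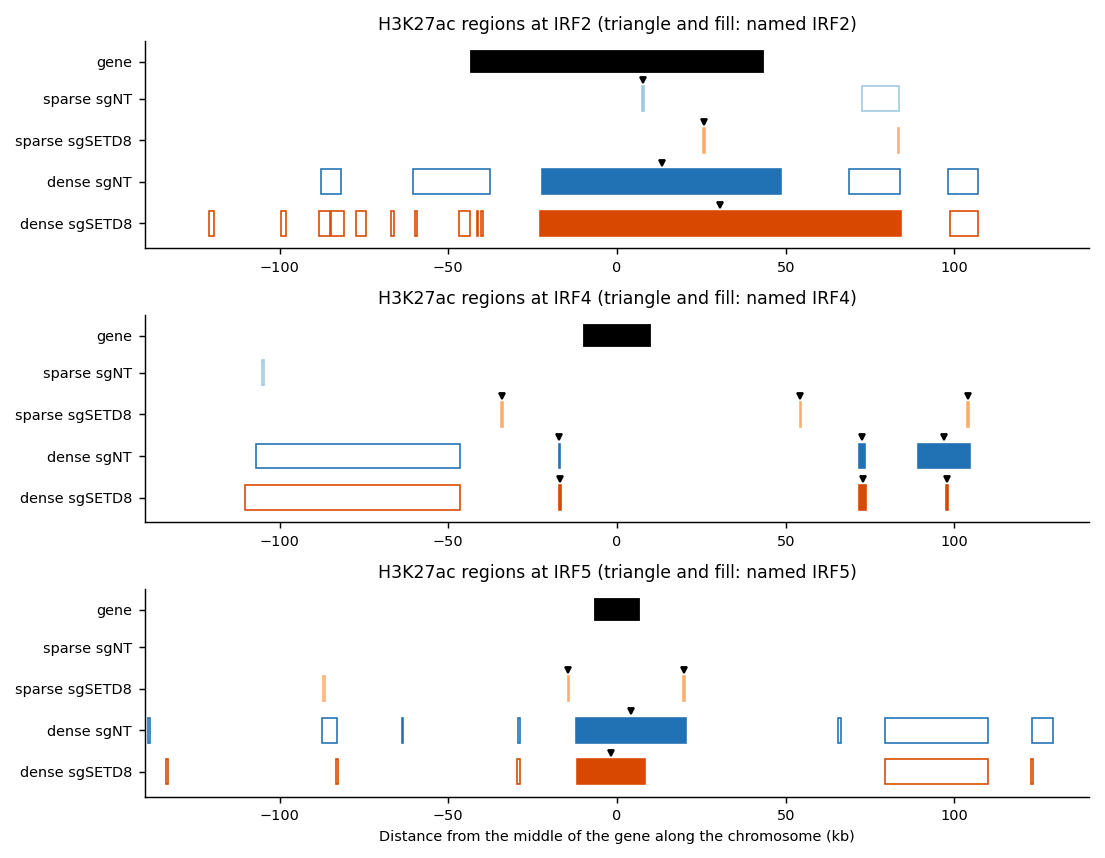
Regions around IRF2, IRF4 and IRF5 in the 4 tables, by distance from the middle of each gene in kb (horizontal axes), with regions named for the gene filled and marked by a triangle and others open. The dense IRF2 region is wider with sgSETD8, the dense IRF5 region is wider with sgNT, and the IRF4 gene lies between regions; the narrowest regions are drawn slightly wider than scale.

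The density of a region could be set side by side only where both groups had nearly the same region. Among 1769 dense regions that covered each other by at least 90%, there was no IRF region. At 50% there were 6011, with a median log2 ratio (sgSETD8 over sgNT) of -0.27 and an SD of 0.30 over regions, and 3 were of this family. Relative to that median the log2 ratio was -0.48 for IRF2, 0.02 for the IRF4 region at 473411 and 0.37 for IRF5. The density of IRF2 was taken over a region 1.51 times as wide with sgSETD8, and that of IRF5 over one 1.60 times as wide with sgNT. There is no replicate behind these ratios.

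The remaining members had no region by name, as did 50.8% of 20037 protein-coding genes. Absence from these tables does not show that the mark was absent, since many numbered peaks are not in them. IRF3 (chr19:49659572-49665857), the constitutively expressed activator of interferon beta, had its nearest dense region at PRR12, 45.0 kb away with sgNT and 44.8 kb with sgSETD8. In both dense tables, 4 numbered peaks fell between the regions on its sides and are not in the tables used here. IRF7 (chr11:612555-615950), the amplifier of type I interferon, lay 24.1 and 24.2 kb from dense regions of PHRF1. That locus was 1 region of 3 peaks with sgNT (chr11:576094-588427, rank 2339) and 3 unjoined peaks with sgSETD8 (best rank 4299), so here the unjoined peaks were in the sgSETD8 table and not, as at IRF1, in the sgNT table. The dense sgSETD8 table also had regions named RASSF7 (501 bp, rank 12969) and DRD4 (444 bp, rank 15191) within 50 kb of IRF7. Closer to IRF7, at 15.25 kb, lay a sparse sgNT region named PHRF1, chr11:587712-597305 (9.59 kb, 2 peaks, rank 361). The nearest sparse sgSETD8 region was 254 kb from the gene.

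IRF9 (chr14:24161265-24166565), the DNA-binding part of the type I interferon complex, had a dense sgSETD8 region 13.3 kb away, named REC8 (677 bp, rank 12043), and its nearest dense sgNT region 52.3 kb away, named DCAF11. Between the regions on the sides of IRF9, 10 numbered peaks with sgNT and 8 with sgSETD8 are not in the tables used here. These counts are over gaps of unlike width, 175 kb with sgNT and 573 kb with sgSETD8. IRF8 (chr16:85899162-85922609), needed for monocyte and dendritic cell development, was the most isolated of the 8 in the dense pair. Its nearest dense regions were 103 kb away with sgNT and 96.7 kb away with sgSETD8, in gaps of 653 and 645 kb. In the sgSETD8 table the peak numbers on the sides of that gap, 20917 and 20918, leave no numbered peak between them, and with sgNT 3 or 4 are skipped. The sparse sgNT table had 1 region 5.87 kb past IRF8, named MIR6774 (293 bp, rank 5142).

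**Figure D5:**
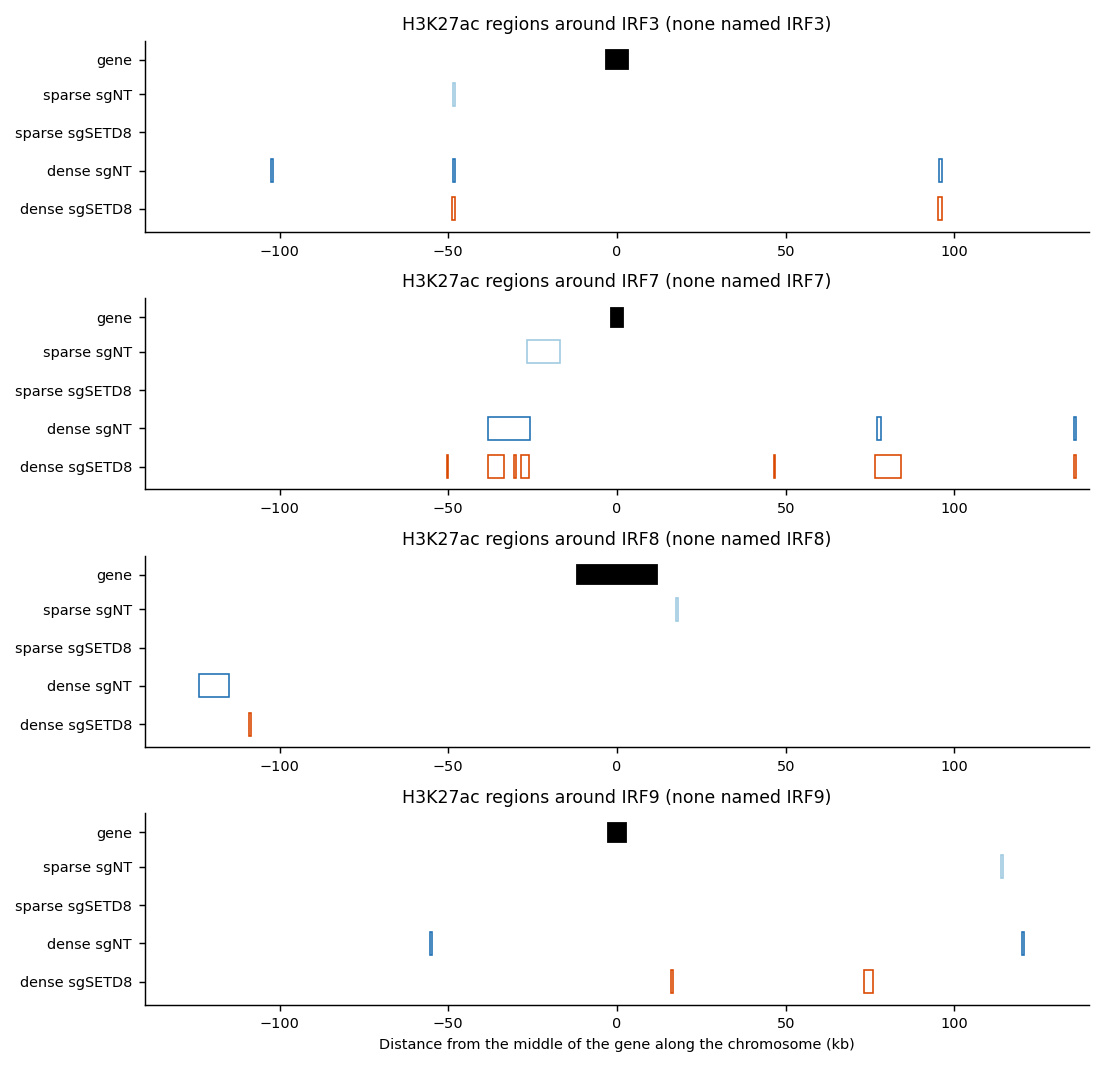
Regions around IRF3, IRF7, IRF8 and IRF9 in the 4 tables, by distance from the middle of each gene in kb (horizontal axes), all open because none carries the member's name. No dense region lies within 50 kb of IRF8. The dense PHRF1 regions near IRF7 are 1 joined region with sgNT and 3 single peaks with sgSETD8. The narrowest regions are drawn slightly wider than scale.

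Whether a member's region was also found in the other group differed between the pairs. In the sparse pair none was: 2 of 2 sgNT and 6 of 6 sgSETD8 regions overlapped no region of the other group, against 79.1% and 85.1% of all regions. In the dense pair 2 of 15 sgNT regions (both of IRF1, given above) and 0 of 6 sgSETD8 regions had no counterpart, against 22.7% and 34.0% of all regions. Across pairs, both sparse sgNT regions and 3 of the 6 sparse sgSETD8 regions lay in a dense region of either group. Of these 3, the IRF2 region lay in dense regions of both groups. Those of IRF4 and IRF5 lay in a dense sgNT region only. The share of all sparse regions that lay in a dense region is not given here.

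The genes whose covered length over the 4 tables was most like a member's, by Euclidean distance in log2(1 + kb) among 13171 genes, were as follows. Nearest to IRF1 were GPATCH8 (0.140), NTNG2 (0.220) and NR1H3 (0.234), and nearest to IRF2 were SLC22A16 (0.302), ARHGAP25 (0.344) and PSMA1 (0.390). Nearest to IRF4 were PPP6R2 (0.187), IL20RB (0.423) and SLC25A51 (0.511), and nearest to IRF5 were GABPB1-AS1 (0.165), FGD5-AS1 (0.223) and SNORA37 (0.332). For GPATCH8 the covered lengths were 0.459 and 0 kb in the sparse and 9.12 and 2.03 kb in the dense pair, against 0.398, 0, 9.14 and 1.78 kb for IRF1.

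Around the family, the wider interferon pathway was counted the same way. The shares of all genes to set beside each list are those above, 37.3% with more and 21.2% with fewer dense regions in sgSETD8, and 51.3% and 33.4% for sparse regions. Of all genes with a dense region, 20.5% had one with sgSETD8 only and 11.4% with sgNT only. Of 22 genes for type I interferons, sensors and adaptors, 15 had a region, and in the dense pair 7 had more with sgSETD8 (50.0% of those with a dense region), 3 fewer (21.4%) and 4 equal numbers, with a median difference of 0.5 (0 for all genes). In the sparse pair 2 had more and 4 fewer, with a median of -1 (1 for all genes). TBK1, the kinase that activates IRF3, had 2 dense regions and 34.6 kb with sgNT and 3 regions and 27.1 kb with sgSETD8. IFIH1, a sensor of double-stranded RNA, had a dense region with sgSETD8 only (15.9 kb, rank 2032), of which sgNT regions of other names covered 52.7%. IFNB1, the interferon beta gene, had 1 and 2 dense regions, and DHX58, a helicase related to IFIH1, had 1 and 0.

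Of 16 receptor and JAK-STAT genes, 12 had a region, 5 with more, 4 with fewer and 3 with equal dense regions in sgSETD8 (2, 6 and 2 in the sparse pair), with medians of 0 and -1 (0 and 1 for all genes). These are 41.7% with more and 33.3% with fewer dense regions, against 37.3% and 21.2% of all genes, and 20.0% and 60.0% for sparse ones, against 51.3% and 33.4%. STAT5B, a signal transducer of cytokine receptors, was likewise listed as unjoined peaks with sgNT. It had 11 of these in the dense table, covering 12.9 kb, and 2 regions of 9 peaks and 36.7 kb with sgSETD8, which covered 77.4% of the sgNT bases. IFNGR2, a chain of the interferon gamma receptor, had 4 dense regions of 6 peaks and 11.8 kb with sgNT. With sgSETD8 it had 2 regions of 7 peaks and 30.4 kb. STAT5A had 3 and 1 dense regions, and IFNAR1, a chain of the type I interferon receptor, had 2 and 3.

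Of 50 interferon-stimulated genes, 26 had a region. In the dense pair 7 had more with sgSETD8, 5 fewer and 10 equal numbers, and in the sparse pair 6 had more and 5 fewer, with medians of 0 and 1, as for all genes. The dense shares were 31.8% with more and 22.7% with fewer, near those of all genes (37.3% and 21.2%), and the sparse shares 54.5% and 45.5% (51.3% and 33.4%). OASL, an antiviral protein related to the oligoadenylate synthetases, was the only gene named from these lists with regions in 1 group alone in both pairs. Genes with this pattern were named first, and its share among all genes is not given here. It had 1 sparse (0.576 kb, rank 2170) and 1 dense region (1.08 kb, rank 10023) with sgNT, and the nearest sgSETD8 regions were 64339 and 35305 bp away. B2M, the light chain of class I histocompatibility molecules, had a dense region with sgSETD8 only (4.28 kb, rank 4629), 12140 bp from the nearest sgNT region. IFI44 had 1 dense region in each group and 0 and 2 sparse ones, and CD74 had 1 dense region in each and 1 and 0 sparse ones.

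Of 16 negative regulators of interferon signalling, 10 had a region, and 3 had more, 1 fewer and 6 equal numbers of dense regions with sgSETD8 (median 0). Sparse regions were more for 1 and fewer for 2 (median -1, against 1 for all genes). The dense shares, 30.0% with more and 10.0% with fewer, stand against 37.3% and 21.2% of all genes. PIAS1, a SUMO ligase, had 3 dense regions of 18 peaks and 80.3 kb with sgNT and 2 of 26 peaks and 125 kb with sgSETD8, with best ranks of 994 and 347. PIAS2 had 3 dense regions in each group, of 3 and 6 peaks, covering 5.73 and 32.3 kb. The phosphatase gene PTPN1 had 2 in each, and PTPN11 had 2 and 3. Of 17 binding partners and corepressors, 13 had a region, with 4 more, 1 fewer and 6 equal in the dense pair (median 0) and 4, 6 and 1 in the sparse pair (median -1). These are 36.4% and 9.09% of the partners with a dense region (37.3% and 21.2% of all genes), and 36.4% and 54.5% of those with a sparse one (51.3% and 33.4%). ETV6, a repressor of the ETS family, had 2 dense regions in each group, covering 237 and 251 kb at best ranks of 13 and 15, and 7 sparse regions with sgNT against 2. IRF2BP2, a corepressor that binds IRF2, had 1 dense region in each group at ranks 562 and 529, and 0 and 2 sparse regions. PRDM1, the repressor BLIMP-1, had 9 and 11 dense regions, covering 46.7 and 85.7 kb. BATF, a partner of IRF4 and IRF8, had 2 in each group, covering 6.84 and 2.26 kb.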

How the data were processed

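H3K27ac was profiled by CUT&Tag in 4 Kasumi-1 samples, 2 sgNT and 2 sgSETD8, grouped by the sample titles; replicate numbers, given in accession order, only name samples. The series design text names H3K27me1, the sample labels H3K27ac, which is used here. Per the submitters' processing notes, cutadapt and Bowtie2 were used with hg38; peak calling, stitching and annotation are steps not given in the sources used here. Each of the 4 tables deposited by the authors holds 1 value column, a signal that divides by the region's width into a per-bp density written to at most 4 decimals, whose scaling no source states. Depth per sample is unknown, so no depth-based error is given. Tables were assigned to groups from the guide in their region identifiers, and the identifiers of the sparse sgNT table name only the cell line. Tables of the same file type were taken as a pair. It was not resolved which sample of a group a table holds. Value columns without a group numbered 0.

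Regions were counted by gene name and by position (GRCh38 gene spans and promoter sequences from RefSeq), overlap needed 1 bp, and no p-value was computed. Named genes were the 8 members, neighbours within 50 kb, 3 genes of most like pattern per member with regions in at least 3 tables, and up to 4 genes per interferon list, first those in 1 group only in both pairs, then by the size of the difference. Neighbours farther off, and EXOC2 and TNPO3, were named after their positions were seen. A gene that the rule takes is not reported here. The members and lists were chosen with earlier results of these data known. Alternatives were the best-ranked 5000 regions, a width of at least 500 bp, a start site within 50000 bp, merging within 12.5 kb, other overlaps, windows and rankings, and leaving out each pair; counting peaks, and sparse regions that overlap a dense one, were chosen after seeing the data. The counting scripts were tested on simulated regions. Python 3.11.15, numpy 2.4.6, pandas 2.3.3 and matplotlib 3.10.9 were used.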

Additional observations from a re-analysis of the deposited data

How the results depend on the processing

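All differences are sgSETD8 minus sgNT. The sparse difference in IRF regions, 4, was 0 with regions of at least 500 bp and 2 with a start site within 50000 bp. It was 1 when only sparse regions that overlap a dense one of either group were counted (2 with sgNT, 3 with sgSETD8). Both of these sgNT regions overlapped a dense sgNT region. Of the 3 sgSETD8 regions, only that of IRF2 overlapped a dense sgSETD8 region, so the direction depended on this choice. The dense difference, -9, was 0 among the best-ranked 5000 regions and 0 after merging within 12.5 kb, and kept its direction with regions of at least 500 bp (-7), a start site within 50000 bp (-9) and constituent peaks (-6). The mean over pairs, -2.5, ranged from -9 to 4 on leaving out each pair, so its direction rested on the dense pair. The difference in IRF genes with a region was 1 in the sparse pair and 0 at 500 bp; its mean over pairs, 0.5, ranged from 0 to 1. Dense regions without a counterpart were 2 with sgNT and 0 after merging, and 0 with sgSETD8 and 2 when 50% cover was required. Matched IRF regions were 0 at 90% and 3 at 50% reciprocal cover, and the uncentred ratio could not be had at 90%. The best dense rank went from 112 to 1091 with sgNT (an IRF1 region) and from 97 to 1570 with sgSETD8 (an IRF4 region) when ranked by density. Windows of 100 kb held 41 and 36 dense regions. For the lists, the best-ranked 5000 regions gave, in the dense pair, 1 in place of 4 for sensors, 1 in place of -10 for receptors and JAK-STAT, 0 in place of 2 for interferon-stimulated genes (1 in place of 2 in the sparse pair), -1 in place of 3 for negative regulators and 2 in place of 5 for partners. At 500 bp the dense values were -2 for sensors, -3 for interferon-stimulated genes and 5 for negative regulators, and the sparse values were -1 in place of -2 for sensors, -1 in place of -4 for receptors, -2 in place of 2 for interferon-stimulated genes and -8 in place of -5 for partners. Fewer regions are counted by construction in the stricter sets; otherwise the cause was not tested. Leaving aside the alternatives chosen after seeing the data, 30 settings left a value close to the one reported, 23 moved it and 6 reversed it. No paired analysis was possible because the labels give no replicate numbers and a table cannot be tied to 1 sample of its group; the pairs of tables above rest on the file type and are not pairs of samples known to share a culture or batch. The tables hold no counts, so what depth limits is unknown.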
